A study of Homo sapiens with 10 samples.

Results

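The developmental homeobox genes outside the HOX clusters, 68 in number, are described here by the binding of LSD1, a histone demethylase, and of its CoREST partners RCOR1, RCOR2 and RCOR3 around them. They were chosen by symbol, without use of any peak, as the RefSeq genes named PAX, LHX, DLX, EMX, OTX, IRX, MSX, GSX, BARHL, VAX, MEIS, PBX or NKX followed by a number, together with the sine oculis homeobox family, and they are 68 of 19974 protein-coding genes on chromosomes 1 to 22 and X. They fall into 14 families. The name fits most of them, since their products bind DNA through a homeodomain, but PAX1 and PAX9 carry a paired domain without a homeodomain and PAX2, PAX5 and PAX8 only part of one.

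The data are chromatin immunoprecipitation sequencing (ChIP-seq) peak lists of 10 libraries from Kelly cells, a neuroblastoma line with amplified MYCN, in 5 groups of 2. RCOR2 was precipitated with a FLAG antibody from Kelly_RCOR2-3xF cells given 2 µg/mL doxycycline for 48 h, which switches on a tagged RCOR2. RCOR1 and RCOR3 were precipitated with antibodies against the proteins themselves from non-treated Kelly cells, and LSD1 from non-treated Kelly-shRUNX1T1 cells, which carry a doxycycline-driven short hairpin RNA against RUNX1T1. The FLAG background came from Kelly_RCOR2-3xF cells without doxycycline. All groups share the 1 cell line, the labels do not say whether the replicates are separate cultures, and the induced level of tagged RCOR2 is not given. Antibody, tag and, for LSD1, cell derivative change together with the protein, so these cannot be told apart in any comparison between proteins. Peak lists do not measure expression, so neither the cell identity nor the activity of any gene was checked.

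RCOR1, RCOR2 and RCOR3, also called CoREST proteins, are scaffolds that tie LSD1, which removes methyl groups from lysine 4 of histone H3, to histone deacetylases on chromatin, and the REST repressor brings RCOR1 to neuronal genes in other cell types. Homeobox genes outside the HOX clusters pattern the eye, forebrain, limb, heart and spinal cord. In cells that do not use them, many are held silent with CpG-rich starts under Polycomb marks. MEIS and PBX proteins are partners of other homeodomain factors, and MEIS2 belongs to the transcription factors that keep neuroblastoma cells growing.

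The stretches around gene starts that best show the range of occupancy are printed first. Each is a 300-base window from 250 bases before to 50 after a start in RefSeq on GRCh38, written 5′ to 3′ on the gene's strand, with every CpG in capitals, because CpG content varies most between the windows. MEIS3 (chr19:47422184-47422483, minus strand) was overlapped by RCOR1, RCOR2 and RCOR3, DLX6 (chr7:97005303-97005602, plus strand) by RCOR1 and RCOR2, and OTX1 (chr2:63050580-63050879, plus strand) by RCOR2 alone. These calls use regions found in both libraries of a protein, and an RCOR1 peak of replicate 1 only also overlapped the OTX1 window. PAX8 (chr2:113278872-113279171, minus strand) and PAX4 (chr7:127618093-127618392, minus strand) were overlapped by none of the 4 proteins.
MEIS3: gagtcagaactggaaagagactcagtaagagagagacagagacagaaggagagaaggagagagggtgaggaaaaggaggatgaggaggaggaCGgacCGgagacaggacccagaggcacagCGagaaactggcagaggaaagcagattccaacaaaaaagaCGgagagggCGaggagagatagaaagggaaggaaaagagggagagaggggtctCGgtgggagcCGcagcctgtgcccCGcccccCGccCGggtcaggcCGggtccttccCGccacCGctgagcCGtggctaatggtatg
DLX6: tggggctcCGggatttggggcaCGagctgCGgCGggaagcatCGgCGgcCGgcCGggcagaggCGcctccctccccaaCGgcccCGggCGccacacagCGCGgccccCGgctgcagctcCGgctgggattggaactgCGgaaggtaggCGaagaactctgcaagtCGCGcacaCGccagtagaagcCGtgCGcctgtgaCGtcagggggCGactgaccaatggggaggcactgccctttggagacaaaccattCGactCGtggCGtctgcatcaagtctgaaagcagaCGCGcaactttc
OTX1: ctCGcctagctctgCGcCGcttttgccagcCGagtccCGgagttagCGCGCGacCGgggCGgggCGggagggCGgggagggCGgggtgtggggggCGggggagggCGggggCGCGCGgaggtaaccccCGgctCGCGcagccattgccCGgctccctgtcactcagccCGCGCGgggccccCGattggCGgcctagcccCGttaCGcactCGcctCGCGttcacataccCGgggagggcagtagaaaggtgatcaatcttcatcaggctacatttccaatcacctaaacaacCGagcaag
PAX8: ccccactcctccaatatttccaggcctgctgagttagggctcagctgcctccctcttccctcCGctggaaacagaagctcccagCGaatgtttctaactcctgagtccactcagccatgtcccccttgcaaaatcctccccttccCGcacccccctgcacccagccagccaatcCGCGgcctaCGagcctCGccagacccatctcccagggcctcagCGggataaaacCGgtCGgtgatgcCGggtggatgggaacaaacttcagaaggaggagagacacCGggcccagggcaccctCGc
PAX4: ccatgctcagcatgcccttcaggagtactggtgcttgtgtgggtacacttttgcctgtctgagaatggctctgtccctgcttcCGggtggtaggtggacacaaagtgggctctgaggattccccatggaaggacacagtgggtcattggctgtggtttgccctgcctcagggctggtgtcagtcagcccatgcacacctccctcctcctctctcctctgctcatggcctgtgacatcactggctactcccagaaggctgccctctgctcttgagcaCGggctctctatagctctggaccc

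These windows held 34 CpG at OTX1, 30 at DLX6, 14 at MEIS3, 13 at PAX8 and 2 at PAX4. Over the 35116 promoter windows in the RefSeq table the quartiles were 4, 14 and 28, so OTX1 and DLX6 lay above the upper quartile, MEIS3 and PAX8 near the median, and PAX4 below the lower quartile. The PAX8 window was occupied by none of the proteins and the MEIS3 window by 3. These windows were chosen to show the range, and the relation of CpG count to occupancy was not tested. Counted in bases downstream of the start, the nearest RCOR2 summit lay at 111 and 131 for MEIS3 in replicates 1 and 2, at −348 and −174 for OTX1, and at 639 and −154 for DLX6. The 5 windows were searched on both strands for 6 motifs. The homeodomain core TAATTA is found in 4.84% of all windows and the PBX motif TGATTGA in 2.07%. The E-box CACGTG is found in 7.26% and the GATA core AGATAA in 10.3%. Of the REST motif, the left portion TCAGCAC is found in 4.52% and the right portion GGACAG in 20.5%. The only match in the 5 windows was the right portion of the REST motif at PAX4, so no matches overlapped. An RCOR2 region overlapped a promoter window of 33 of the 48 homeobox genes that have an entry in the table, an RCOR1 region 5, an RCOR3 region 1 and an LSD1 region 0. The share over all windows was not counted, so these counts have no comparison. Within 2 kb of the start of these 48 genes, RCOR2 lay at 79.2%, against 69.7% of all genes with a known strand. For RCOR1 it was 14.6%, against 29.6%, for RCOR3 4.17%, against 10.2%, and for LSD1 0%, against 3.25%. Since 48 of 68 is 70.6%, a check of CpG content over all 68 genes is void.

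Occupancy of a gene was counted in the same way for every gene. A region is a stretch in which peaks of both libraries of a group overlap by at least 1 bp, and a gene end is 2 kb either side of either end of the gene, because the gene table used for all 68 genes has no strand. RCOR2 lay at a gene end of 57 of the 68 homeobox genes (83.8%), against 70.8% of all protein-coding genes. RCOR1 lay at 13 (19.1%, against 30.5% of all genes), RCOR3 at 4 (5.88%, against 10.6%) and LSD1 at 2 (2.94%, against 4.17%). RCOR2 was the single protein with a higher share at the homeobox genes than at all genes. The FLAG background from cells without doxycycline covered 2 (2.94%, against 5.77%), both of them among the RCOR2-bound genes. All shares are descriptions, since an exact two-sided test between groups of 2 could reach no p below 0.333.

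**Figure D1:**
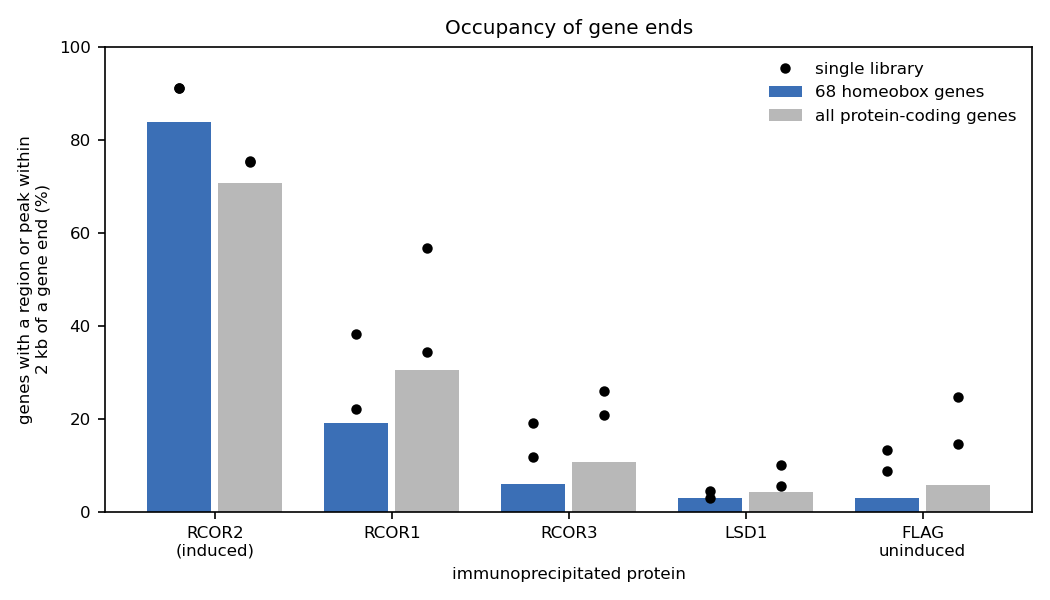
Share of the 68 homeobox genes (blue) and of all 19974 protein-coding genes (grey) with a region within 2 kb of a gene end, in percent, by immunoprecipitated protein. Bars are regions found in both libraries and dots are the peaks of single libraries; for RCOR2 the blue bar stands above the grey one (83.8 and 70.8%) and for every other protein below it.

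Single libraries gave the same order of RCOR2, RCOR1 and RCOR3. RCOR2 peaks were found at 62 and 62 of the homeobox genes in replicates 1 and 2 (91.2% ± 0, SD, n = 2), against a mean of 75.4% of all genes. RCOR1 peaks were found at 26 and 15 (30.2% ± 11.4, SD, n = 2), against 45.6%, and RCOR3 peaks at 8 and 13 (15.5% ± 5.16, SD, n = 2), against 23.4%. LSD1 peaks were found at 3 and 2 (3.67% ± 1.04, SD, n = 2), against 7.74%, and FLAG peaks without doxycycline at 9 and 6 (11.0% ± 3.1, SD, n = 2), against 19.6%. The counts of induced and uninduced FLAG libraries did not overlap, and neither did those of RCOR1 and RCOR3, while the RCOR1 counts differed more between their own replicates than the lower of them differed from the higher RCOR3 count. The same held over all genes, with 75.3 and 75.5% for induced FLAG against 24.6 and 14.6% for uninduced FLAG. RCOR1 had 56.8 and 34.4% of all genes, against 20.9 and 25.9% for RCOR3, so neither separation is particular to the homeobox genes. The lists differ in length, with between 13644 and 75643 peaks per library for the 4 proteins and 10253 and 14958 for uninduced FLAG, and the read depth is unknown.

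List length and strength bear on the RCOR2 share directly. When each library was limited to its 13644 strongest peaks, RCOR2 regions lay at 20 homeobox genes (29.4%), against 40.6% of all genes, so the difference of 13.0 percentage points became −11.2. It was 1.7 points with a gene-end window of 500 bp (67.6%, against 65.9%), 0.1 when the 2 replicate peaks had to overlap by 50% of each (61.8%, against 61.7%), and 0.2 for peaks scoring above the median of their list (61.8%, against 61.6%). The higher RCOR2 share of the homeobox genes was therefore reversed with equal numbers of top peaks and small or absent under the other settings named. The RCOR1 difference of −11.4 points became 0.25 with the 50% overlap and −0.1 without regions that held an uninduced FLAG peak, and the RCOR3 difference of −4.72 points became 0.99 without those regions. The strongest RCOR2 peak at a homeobox gene had a median fold enrichment over local background of 9.22 in replicate 1 and 13.4 in replicate 2, against 12.7 and 22.9 over all genes with such a peak. Within each library's own list these peaks ranked at a median percentile of 77.0 and 77.0, against 85.9 and 85.1. The RCOR2 peaks at homeobox genes were therefore typically weaker than those at other genes. Fold enrichment and percentile are the values of the authors' peak caller and rank peaks within a library only.

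**Figure D2:**
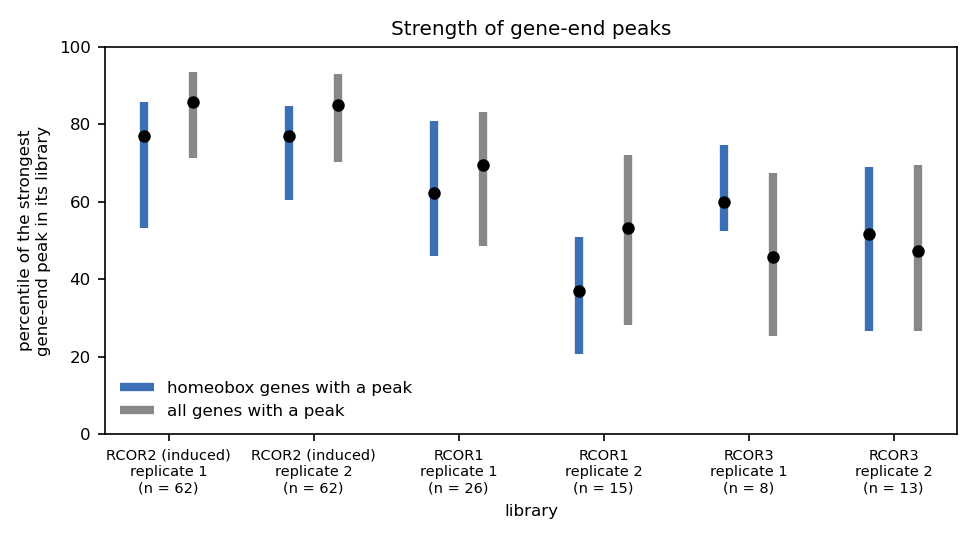
Percentile, within its own library's list, of the strongest peak within 2 kb of a gene end, for homeobox genes (blue) and all genes (grey) that have a peak. Points are medians over genes and bars run from the lower to the upper quartile; in both RCOR2 libraries the homeobox median is 77.0, below the medians of 85.9 and 85.1 over all genes.

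A gene-end RCOR2 region that no FLAG peak of either uninduced library overlapped was found at 52 of the homeobox genes (76.5%), against 48.9% of all genes. At IRX6, MSX2, PBX3, SIX2 and VAX2 every RCOR2 gene-end region was overlapped by such a peak. Without the genes that had an uninduced FLAG peak anywhere at their ends, which takes out BARHL1, DLX1, IRX5, OTX2 and SIX5 as well, 47 were left (69.1%, against 40.7%). An uninduced FLAG peak of either library lay at 11 of the 68 (16.2%), against 30.7%. PBX3, a TALE-class partner of HOX and MEIS proteins, had FLAG peaks of 22.1 and 32.2 fold with doxycycline, against 5.37 and 5.12 fold without it. Both induced values lie above both uninduced ones, but folds of different libraries share no scale.

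RCOR2 was the only protein with a region at the ends of most of the homeobox genes it occupied. It lay at a gene end without a region of RCOR1, RCOR3 or LSD1 in 43 of the 68 (63.2%), against 39.1% of all genes, which is 75.4% of its 57 homeobox genes and 55.3% of its 14138 genes overall. Some of the 43 had peaks of another protein that made no region, such as RCOR1 peaks in both libraries at BARHL1 and DLX2. The RCOR2 lists are the longest, and this count was not repeated with equal numbers of top peaks. Every one of the 13 RCOR1-bound homeobox genes was also bound by RCOR2, which holds for 97.9% of RCOR1-bound genes overall. Counted by region, 11.3% of the 106 RCOR2 regions at homeobox gene ends overlapped RCOR1, against 32.9% over all genes, 3.77% overlapped RCOR3, against 10.7%, and 0 overlapped LSD1, against 2.56%. A FLAG peak without doxycycline overlapped 10.4%, against 32.4%. The regions were narrower, with a median width of 756 bp against 893 bp.

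The authors' deposited lists named RCOR2-high and RCOR2-low hold positions without values. No source used here says what sets the classes apart. RCOR2-high regions lay at 9 of the 68 homeobox gene ends (13.2%), against 31.6% of all genes, namely DLX1, DLX2, DLX6, IRX5, LHX4, MEIS2, OTX1, SIX5 and VAX2. RCOR2-low regions lay at 13 (19.1%), against 27.2%, among them IRX3, IRX6, MEIS1, MEIS3, NKX6-1, PBX3, SIX2 and SIX6. No homeobox gene had both, and most RCOR2-bound ones had neither.

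Occupied homeobox genes often had several separate RCOR2 regions. At least 2 RCOR2 regions lay at the ends of 28 of the 68 (41.2%), against 18.0% of all genes. The share was higher for HOX genes (57.5%), and the count was not repeated with equal numbers of top peaks. OTX1, which acts in forebrain and sense organ development, had 7 RCOR2 regions at a gene of 8.1 kb, MEIS1 had 5, and IRX5, LHX3 and MEIS2 had 4 each. The strongest OTX1 region (chr2:63050056-63051070) had 14.4 and 46.3 fold in replicates 1 and 2 and spans the promoter window printed above. The other OTX1 gene-end regions stayed between 4.98 and 11.1 fold.

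The folds given per gene below are those of the strongest gene-end peak of each library, replicate 1 before replicate 2, and these can lie in different regions of a gene. Among the TALE-class genes, whose products pair with other homeodomain proteins, all 3 MEIS genes were bound by both RCOR1 and RCOR2. MEIS2 had RCOR2 peaks of 38.2 and 35.6 fold, RCOR1 peaks of 9.73 and 4.73 fold, RCOR3 peaks of 4.47 and 5.97 fold, and no LSD1 or uninduced FLAG peak at its ends. Its RCOR3 region (chr15:37100623-37100815) held 4.47 and only 3.4 fold, the latter at percentile 0.356 of its list. The RCOR3 peak of 5.97 fold lay outside that region. The main MEIS2 region (chr15:37099591-37102241) covers an end of the gene and is in the RCOR2-high list. MEIS3 had RCOR2 peaks of 15.7 and 16.4 fold, RCOR1 peaks of 9.21 and 5.69 fold, and RCOR3 peaks of 6.01 and 7.39 fold, in regions that overlap the promoter window printed above. MEIS1, known from blood stem cells and leukaemia, had RCOR2 peaks of 11.1 and 17.5 fold and RCOR1 peaks of 8.39 and 5.25 fold. Its RCOR3 peaks of 4.94 and 4.76 fold did not overlap each other and made no region. The RCOR2 peaks of MEIS2 stood at percentiles 99.2 and 91.3, above the medians over all genes with a peak, while those of MEIS1, at 82.0 and 80.4, were below them. RCOR1 in replicate 2 stayed at or below percentile 48.7 in all 3 genes.

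PBX2, PBX3 and PBX4 had RCOR2 at a gene end. PBX3 was also bound by RCOR1 (8.4 and 6.23 fold) and LSD1 (5.25 and 4.12 fold), the LSD1 region (chr9:125969016-125969335) lying 1639 bp from an end of the gene and apart from the RCOR1 and RCOR2 regions at the other end. MEIS2, MEIS3, PBX3 and SIX5 were the 4 homeobox genes with at least 3 of the 4 proteins (5.88%), against 10.5% of all genes. MEIS2 is among them only through the RCOR3 region with 3.4 fold in replicate 2.

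The sine oculis homeobox proteins work with EYA phosphatases in eye, muscle and kidney development, and SIX2, SIX3, SIX4, SIX5 and SIX6 had RCOR2. By the lower percentile of the 2 libraries, SIX5 ranked first of the homeobox genes at gene ends for 3 proteins, with RCOR2 at 36.5 and 67.3 fold, RCOR1 at 11.7 and 8.72 fold and RCOR3 at 7.1 and 7.47 fold. By the same measure over all genes with a peak in both libraries it ranked 194 of 14341 genes for RCOR2, 142 of 6583 for RCOR1 and 105 of 2624 for RCOR3. These regions (RCOR2, chr19:45767288-45771155) also lie at an end of DMPK, the neighbouring kinase gene, so they cannot be assigned to SIX5 alone. SIX6, an eye and pituitary factor, had 16.0 and 33.5 fold in a region shared with C14orf39, and SIX3, a forebrain and eye factor, 5.97 and 5.67 fold. SIX2, a kidney progenitor factor, had RCOR1 beside RCOR2, at 5.37 and 5.78 fold. In all, 6 homeobox genes shared an RCOR2 region with another gene's end, the others being LHX3, NKX6-2, OTX1 and PBX2.

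The IRX genes sit in 2 clusters of 3 and act in heart, limb and neural patterning. IRX5 (17.7 and 45.2 fold) and IRX3 (17.7 and 34.1 fold) had strong RCOR2 peaks and, at 8.05 and 4.73 and at 6.04 and 7.15 fold, RCOR1. IRX6 of the same chromosome 16 cluster had RCOR2 at 14.4 and 24.5 fold without an RCOR1 region. IRX1, IRX2 and IRX4 of the chromosome 5 cluster had RCOR2 alone, with 4.43 to 8.3 fold in replicate 1 and 6.73 to 11.2 fold in replicate 2. Every chromosome 16 gene was therefore above every chromosome 5 gene in both RCOR2 libraries.

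The DLX genes, which act in forebrain interneurons and the face, come in adjoining pairs and all 6 had RCOR2. DLX1 had 26.0 and 23.4 fold, DLX2 12.4 and 24.0 fold, and DLX6 12.6 and 34.4 fold, while DLX5, beside DLX6, had 5.78 and 8.37 fold. RCOR1 lay at DLX3, DLX4 and DLX6, at 4.48 and 5.44, 5.82 and 5.05, and 5.25 and 4.14 fold. Each pair on a chromosome thus held at least 1 member with an RCOR1 region except DLX1 and DLX2. At DLX2 the RCOR1 peaks of the 2 libraries did not overlap each other. VAX2, an eye-patterning gene, had RCOR2 at 21.6 and 46.1 fold and RCOR1 at 8.05 and 4.2 fold.

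The LHX genes encode LIM-homeodomain proteins of neural and pituitary development, and 7 of 8 had RCOR2, without RCOR1, RCOR3 or LSD1 regions at their ends. LHX2 had 10.3 and 17.5 fold, and LHX8 had a peak in replicate 1 only. The NKX genes pattern the ventral neural tube, thyroid, lung and heart. Of these 14, 11 had RCOR2 and 1, NKX6-1, had RCOR1 as well, at 5.37 and 5.25 fold. EMX, OTX, BARHL and MSX genes, 8 in all, had RCOR2 regions at their ends and no region of the other proteins. BARHL1 had RCOR1 peaks of 6.37 and 4.2 fold that made no region. BARHL2, MSX2 and OTX1 had an RCOR1 peak in replicate 1 only, and MSX2 an RCOR3 peak in replicate 2 only. GSX2 had RCOR2 alone, while GSX1 had an RCOR2 peak in replicate 2 only.

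The PAX genes had the lowest share of RCOR2-bound genes of the 14 families, 3 of 9. PAX2, a kidney and hindbrain gene, had 12.7 and 21.3 fold, PAX5, a B-cell and midbrain gene, 13.3 and 16.4 fold, and PAX6, the eye and forebrain gene, 3.87 and 6.38 fold. PAX6 ranked last of the 58 homeobox genes with a peak in both libraries. PAX3, a neural crest and muscle gene, and PAX7 had an RCOR2 peak in replicate 2 only, and PAX1, PAX4 and PAX9 in replicate 1 only. PAX7 had LSD1 at an end (5.25 and 8.71 fold) and was the 1 homeobox gene with LSD1 alone. PAX1, PAX3, PAX4, PAX8 and PAX9 made up 5 of the 10 homeobox genes (14.7%, against 28.1% of all genes) with none of the 4 proteins at an end, beside GSX1, LHX8, NKX2-6, NKX2-8 and NKX6-3. NKX2-6 and PAX8 had no gene-end peak in any of the 10 libraries.

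**Figure D3:**
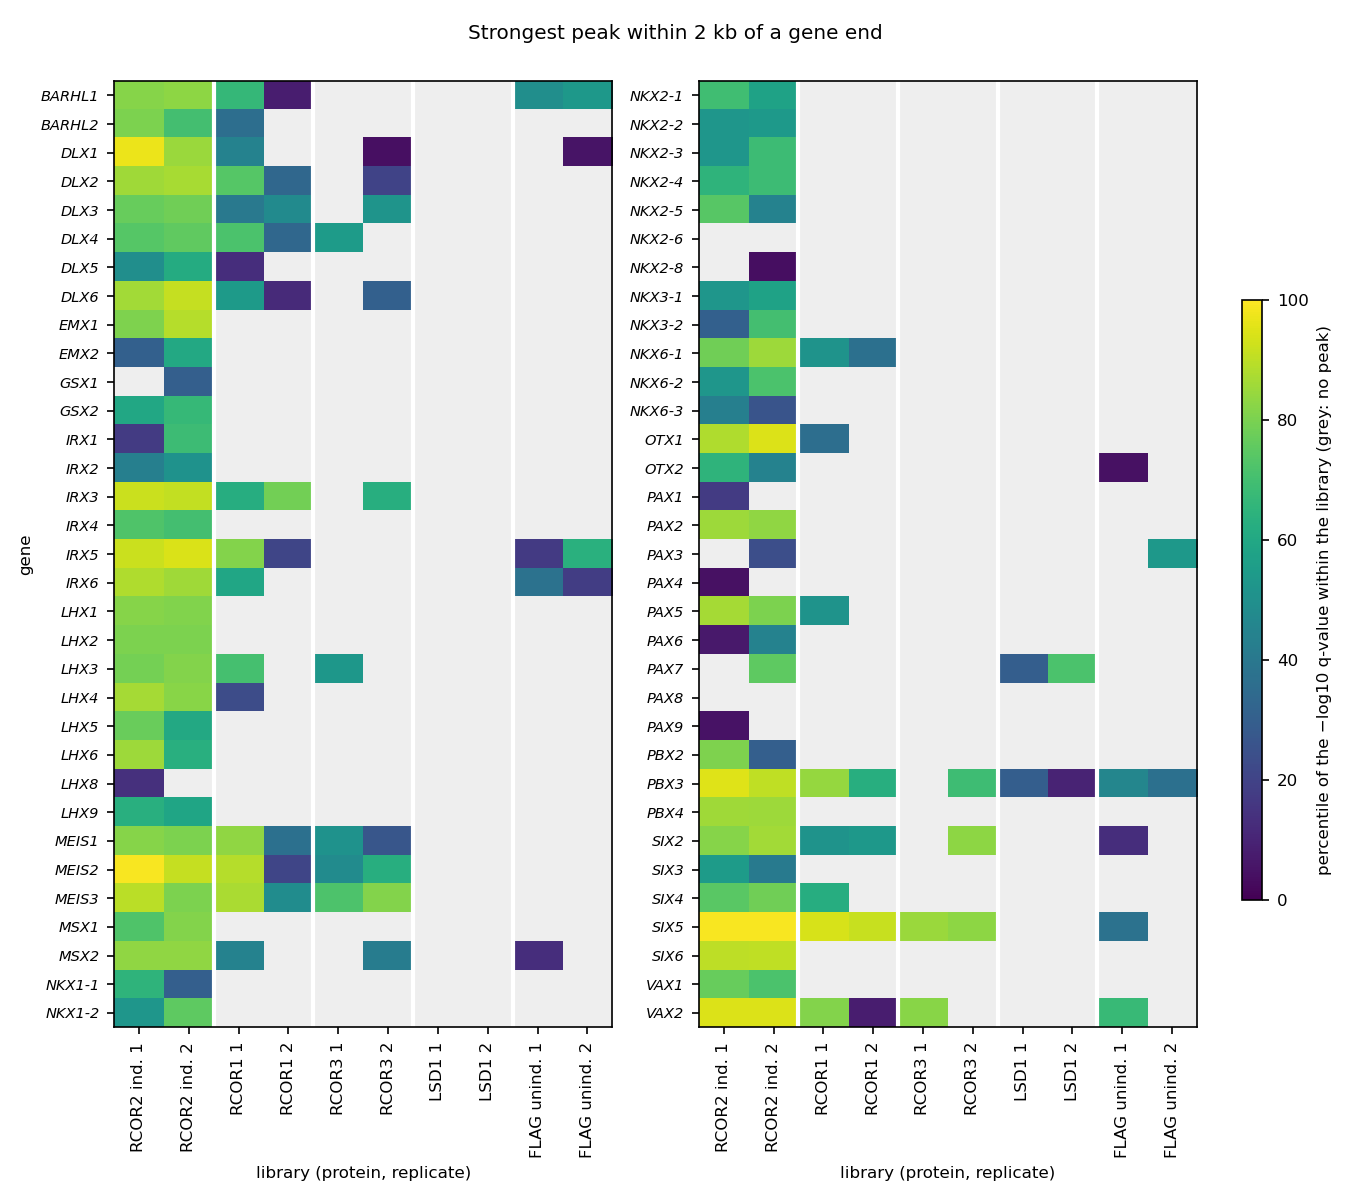
Strongest peak within 2 kb of a gene end for 66 of the homeobox genes (rows, in 2 panels) in each of the 10 libraries (columns), coloured by its percentile within that library's list; grey cells have no peak. The RCOR2 columns are filled for nearly all genes outside PAX, the RCOR1 columns for fewer, and the LSD1 columns for PAX7 and PBX3 of the genes drawn.

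Regions farther out were assigned to the nearest protein-coding gene end within 100 kb. RCOR2 regions were then assigned to 62 of the 68 homeobox genes (91.2%), against 77.9% of all genes. RCOR1 regions were assigned to 24 (35.3%, against 38.8%), RCOR3 regions to 12 (17.6%, against 18.5%), LSD1 regions to 16 (23.5%, against 20.2%) and uninduced FLAG regions to 2 (2.94%, against 6.64%). At gene ends LSD1 lay at 2 homeobox genes (2.94%, against 4.17%), so its nearest-end share was the larger for all genes too. Assignment by nearest end also takes in regions within 2 kb. NKX2-8, NKX6-3, PAX1, PAX4, PAX8 and PAX9 had no region of the 4 proteins by either assignment. RCOR2-high regions were assigned to 12 (17.6%, against 33.2%) and RCOR2-low regions to 28 (41.2%, against 44.5%).

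The 245 RCOR2 regions assigned to homeobox genes make 3.6 per gene, against 1.65 over all genes, but homeobox genes also stand farther from their neighbours. The span nearest to a gene's ends had a median of 111 kb, against 57.1 kb, while the genes themselves were short (median 7.11 kb, against 24.2 kb). Per megabase of this span there were 28.8 RCOR2 regions, against 17.5 over all genes, 4.83 RCOR1 regions, against 6.35, 1.65 RCOR3 regions, against 3.05, and 5.18 LSD1 regions, against 4.67. The RCOR2 density stayed above that of all genes after this scaling, and the RCOR1 and RCOR3 densities below it.

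RCOR2 regions of homeobox genes lay 2 to 10 kb from an end, inside or outside the gene, more often than those of all genes. Of the 245, 42.0% lay within 2 kb, against 49.4% over all genes, and 35.5% lay 2 to 10 kb away, against 18.7%. Beyond 10 kb the shares were 17.6% and 4.9% up to 50 and 100 kb, against 24.1% and 7.85%. Of the 142 RCOR2 regions outside the gene ends, 90.1% overlapped none of the other 3 proteins, against 77.7%. LSD1 regions showed another distribution: of 44, 4.55% lay within 2 kb, against 9.22%, 2.27% at 2 to 10 kb, against 16.7%, 63.6% at 10 to 50 kb, against 46.5%, and 29.5% at 50 to 100 kb, against 27.6%. Nearly all LSD1 regions of these genes were therefore at least 10 kb away from an end.

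**Figure D4:**
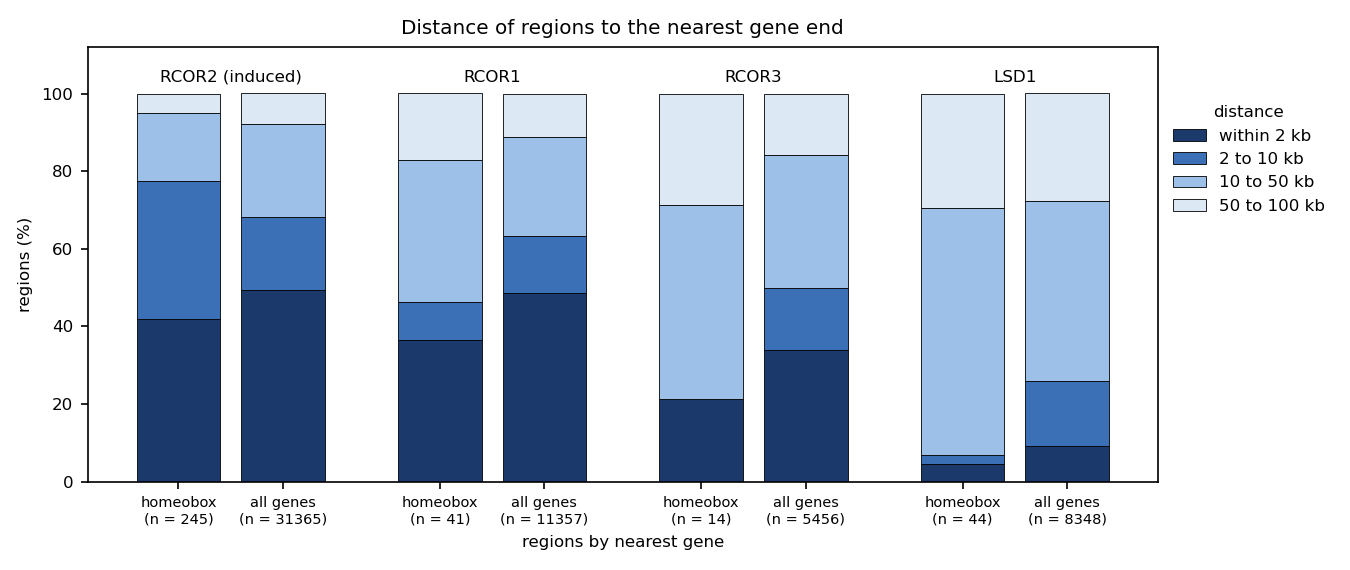
Distance of regions from the nearest gene end, in percent of regions per class, for regions assigned to the homeobox genes (left bar of each pair) and to all genes (right bar), by protein. For RCOR2 the class of 2 to 10 kb holds 35.5% of the homeobox regions against 18.7% over all genes, and for LSD1 the classes beyond 10 kb hold nearly all homeobox regions.

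The LSD1 regions assigned by nearest end were concentrated on few genes. PAX7 had 10, PBX3 5, IRX6 4 and IRX3 3. At least 5 were assigned to 3 of the 68 homeobox genes (4.41%), against 1.68% of all genes. PAX7 and PBX3 are long genes (118 and 220 kb), and the part of length in the counts was not tested. IRX3, IRX5 and IRX6 of the chromosome 16 cluster together had 9 LSD1 regions, whereas IRX1, IRX2 and IRX4 had 0. PAX7 also had 11 RCOR2 regions and 18 regions of the RCOR2-low list by nearest end.

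Strong LSD1 regions near homeobox genes had 17 and 23.5 fold 96040 bp from PBX3 (chr9:125843413-125844128), 17.4 and 18.4 fold 74884 bp from LHX4 (chr1:180353868-180354496), and 15.9 and 18.1 fold 19146 bp from PAX7 (chr1:18768012-18768932). The PBX3 and LHX4 regions also held RCOR1 and RCOR3 regions, and that of PBX3 RCOR2 too. The PAX7 region held none of them. All 4 proteins met near 3 homeobox genes, at PBX3 (above), MSX1 (chr4:4818231-4818787) and SIX2 (chr2:45055251-45055607). The share of all genes with such a region was not counted, so this number is a description only. RCOR2 had 4.97 and 9.33 fold for PBX3, 6.64 and 7.44 for MSX1 and 7.22 and 4.79 for SIX2.

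Of the 42 LSD1 regions beyond gene ends, 31.0% overlapped RCOR1, against 41.7% over all genes, 19.0% overlapped RCOR3, against 31.4%, and 11.9% overlapped RCOR2, against 18.6%. None of the 3 was present at 64.3%, against 52.2%. The deposited RCOR2-low list covered 83.3%, against 79.8%, and no RCOR2-high region overlapped any of them, against 1.28% over all genes. Because LSD1 was mapped in Kelly-shRUNX1T1 cells, a difference between proteins and a difference between cell derivatives cannot be told apart here.

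**Figure D5:**
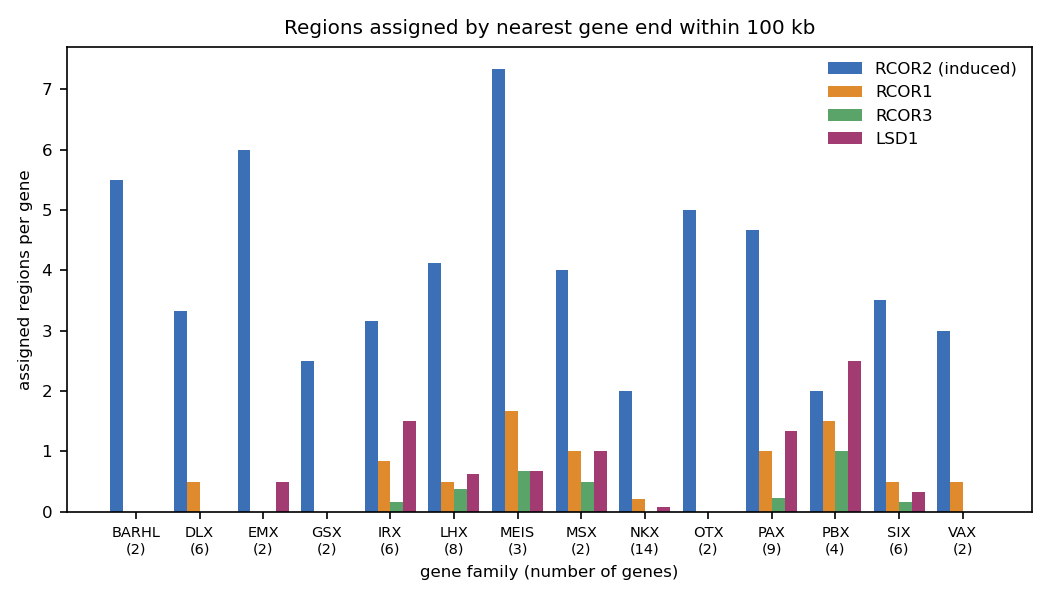
Regions assigned by nearest gene end within 100 kb, per gene of each family, for RCOR2, RCOR1, RCOR3 and LSD1; the number of genes stands under each family name. MEIS has the most RCOR2 regions per gene (22 at 3 genes), and BARHL, GSX and OTX had RCOR2 regions only.

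By family, RCOR2 regions assigned by nearest end numbered 42 at the 9 PAX genes, 33 at the 8 LHX genes, 28 at the 14 NKX genes and 22 at the 3 MEIS genes. MEIS was thus the densest per gene. PAX2 had 14, MEIS1 12, PAX5 and PAX7 11 each, and EMX2, LHX3 and SIX3 8 each. The PAX regions lay mostly at PAX2, PAX5 and PAX7, and by gene 5 of the 9 PAX genes had any, a lower share than the 77.9% of all genes. A region 63911 bp from PAX2 (chr10:100671038-100671485) had 40.5 and 72.7 fold and ranked highest of all RCOR2 regions near homeobox genes by the lower percentile, at 99.2. It held no other protein, no uninduced FLAG peak and is in the RCOR2-high list. PAX5 had a region of 18.1 and 45.5 fold 5571 bp from its end (chr9:37026255-37028697). This region overlapped RCOR1 and an uninduced FLAG peak and is in the RCOR2-high list. NKX6-2, picked here for its values, had one of 30.4 and 34.6 fold 7620 bp away (chr10:132774364-132775561).

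Other gene lists put these shares in context. Beside the 83.8% of the 68 homeobox genes, RCOR2 lay at a gene end of 38 of 40 HOX genes (95.0%), 45 of 54 other homeobox genes (83.3%), 40 of 52 forkhead genes (76.9%) and 16 of 22 genes of partners and cofactors such as EYA, LDB, LMO and TLE (72.7%). Beside 13 of the 68 (19.1%), RCOR1 lay at 8 (20%), 12 (22.2%), 13 (25%) and 9 (40.9%) of the same lists. Beside 43 of the 68 (63.2%), RCOR2 without a region of the other 3 proteins lay at 30 HOX genes (75%), 33 other homeobox genes (61.1%), 27 forkhead genes (51.9%) and 7 partners (31.8%). On these counts the 68 genes were close to the other homeobox genes, and the partners had the highest RCOR1 share. At least 2 RCOR2 gene-end regions lay at 28 of the 68 (41.2%), 23 HOX genes (57.5%) and 28 other homeobox genes (51.9%). The count was 20 for forkhead genes (38.5%) and 6 for partners (27.3%). By nearest end, LSD1 was assigned to 16 of the 68 homeobox genes (23.5%), against 16 of the 22 partners (72.7%). Nothing here was tested between lists, and the shares do not mark the homeobox genes as particular.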

How the data were processed

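ChIP-seq peak lists of 10 libraries were used, 2 per group. The submitters' processing notes name BWA 0.7.17, GRCh38 and MACS2, the last without a version. Which control library was used, how duplicates were treated and whether peaks were filtered afterwards is not stated in any source at hand. Each deposited list holds the peaks of 1 library with a fold enrichment (a ratio over local background), the −log10 of a q-value and a score 10 times that value, as the authors' peak caller wrote them, and none lies above a q-value of 0.05. The deposited RCOR2-high and RCOR2-low lists hold positions only. Peak names in the lists of RCOR1 replicate 2, RCOR3 replicate 2 and FLAG carry other replicate names than the labels, which were followed. No read counts were used, so depth is unknown.

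Peaks on chromosomes 1 to 22 and X were merged within a group where they overlapped by at least 1 bp, and a region holds peaks of both libraries. All 68 symbols matched the RefSeq table of GRCh38.p14, which has no strand. Gene ends (2 kb) and nearest ends (100 kb, edge to edge, ties to all) were computed with python 3.11.15, numpy 2.4.6 and pandas 2.3.3, and the counts were checked on simulated peaks. Shares over all genes include the homeobox genes. Percentiles rank a peak's −log10 q-value within its own list. The authors' fold and score were not compared between libraries by any test, and no p-value was computed. The homeobox genes, the comparison lists and the naming rule were chosen with earlier results of these data known. The rule names genes with at least 3 proteins, the strongest and most often assigned ones per protein, 11 preset genes and those without any peak; complete lists behind short counts are named as well. The HOX list of 40 symbols includes a read-through gene. Alternatives were other windows, peaks of either library, 50% reciprocal overlap, peaks above the median score, equal numbers of top peaks, removal of uninduced FLAG peaks, gene starts only and leaving out each replicate. Values of 2 of the homeobox genes are not reported here singly, and all counts include them.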

Additional observations from a re-analysis of the deposited data

How the results depend on the processing

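The 108 alternative counts were compared as shares of the homeobox genes counted in each setting. Of these shares, 69 stayed within 1.5 times the reported share and 39 did not. Gene starts only rest on fewer genes, so a count could change more than its share. For RCOR1 that count fell from 13 to 7 and the share from 19.1% to 14.6%. Of 65 alternative differences between the homeobox genes and all genes, 39 moved and 3 changed sign. The RCOR2 gene-end count of 57 moved only with equal numbers of top peaks, to 20. This reversed its difference from all genes to −11.2 points. With the same setting the nearest-end count was 27 in place of 62 (39.7%, against 43.7% of all genes). The gene-end count without uninduced FLAG peaks was then 14 in place of 52 (20.6%, against 18.3% of all genes). Its difference from all genes fell from 27.6 to 2.3 points. The RCOR2 gene-end difference, 13.0 points as reported, was also much smaller with a window of 500 bp (1.7), 50% reciprocal overlap (0.1) and peaks above the median score (0.2). The RCOR1 difference reversed to 0.25 points with 50% reciprocal overlap and shrank from −11.4 to −0.1 without regions holding an uninduced peak, and the RCOR3 difference to 0.99 points without those regions. The causes were not tested. For RCOR1, reported at 13 gene ends and 24 nearest ends, peaks of either library gave 26 and 44, 50% reciprocal overlap 4 and 11, peaks above the median score 3 and 11, and equal top peaks 3 and 12. In the same order the all-gene shares were 58.2 and 68.8%, 5.63 and 9.82%, 14.4 and 21.2%, and 15.9 and 23.4%. As reported they were 30.5 and 38.8%. For RCOR3 (4 and 12), either library gave 16 and 28, the median score 2 and 7, and at gene ends 50% reciprocal overlap 1 and equal top peaks 2. The all-gene shares, 10.6 and 18.5% as reported, were then 33.7 and 47.5%, 3.47 and 9.25%, 6.0% and 5.74%. For LSD1 (2 and 16), the median score gave 0 and 10, and at gene ends a window of 500 bp 0, gene starts only 0 and equal top peaks 1. Shares over all genes, 4.17 and 20.2% as reported, were 2.12 and 13.2%, then 2.23%, 3.25% and 2.79%. For uninduced FLAG (2 and 2), either library gave 11 and 25, 50% reciprocal overlap 1 and 1, the median score 0 and 0, and a window of 500 bp 1 at gene ends. All genes, at 5.77 and 6.64% as reported, had 30.7 and 37.6%, 2.73 and 3.36%, 1.51 and 1.97%, and 4.77%. Leaving out a replicate leaves the peaks of a single library. It gave 15 to 26 gene ends and 28 to 44 nearest ends for RCOR1, 62 to 62 and 66 to 67 for RCOR2, 8 to 13 and 19 to 24 for RCOR3, 2 to 3 and 17 to 21 for LSD1, and 6 to 9 and 13 to 17 for uninduced FLAG. Across all genes the single-library gene-end shares were 34.4 to 56.8%, 75.3 to 75.5%, 20.9 to 25.9%, 5.53 to 9.95% and 14.6 to 24.6%. Nearest-end shares of all genes were 41.9 to 67.6%, 84.1 to 84.8%, 30.6 to 39.5%, 25.9 to 29.4% and 22.3 to 26.8%. Gene starts rest on the 48 genes with a strand, and equal top peaks were not run for uninduced FLAG, where 1 list is shorter. No paired analysis was possible because the results are counts from no test. Depth is unknown, so a gene without a peak is not shown to be free of the protein.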
